A study of Mus musculus with 4 samples.

Results

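Alveolar fibroblasts are the collagen-making stromal cells of the lung's gas-exchange wall, and here they were followed with and without a human TNF transgene. Members were single-cell barcodes of the 2 lung libraries with at least 500 UMIs (unique molecular identifiers, one per captured transcript) and at most 20% mitochondrial UMIs, no upper limit on detected genes, at least 5 UMIs of *Col1a1*, *Col1a2*, *Col3a1* and *Dcn* together, no UMI of *Ptprc*, *Cdh5* or *Epcam*, and at least 3 UMIs of *Npnt*, *Slit2* and *Limch1* together, more than of *Col14a1*, *Pi16* and *Dpt*. The rule found 330 cells among 19427 kept lung barcodes and 29563 kept barcodes in the whole series, 303 in the TNF- lung and 27 in the TNF+ lung. *Npnt* (ENSMUSG00000040998, chr3:132881745-132950291), *Slit2* (ENSMUSG00000031558, chr5:47983138-48307733) and *Limch1* (ENSMUSG00000037736, chr5:66745827-67057158) chose the cells, so their levels below are a description.

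TNF+ mice carried a single copy of a human TNF transgene on the C57BL/6 background, and TNF- mice were their littermates without it. All were female and 4 months old, and each library held the pooled lungs of 3 to 5 mice of a genotype, minced and digested with collagenase A, elastase and dispase II, freed of red cells and sorted for living cells. There was 1 library per genotype. No difference between genotypes therefore has a replicate check, no test was run, and every interval printed is a 95% interval that covers counting error only and says nothing of the spread between mice. The transgene acts in the whole animal, its expression was not measured in these files because the reference held mouse genes only, and shares depend on digestion and sorting as well as on the tissue. The lung libraries held 96120328 UMIs in 8555 barcodes (TNF-) and 155989523 UMIs in 11243 barcodes (TNF+), of which 213 and 158 were over the mitochondrial limit and none was under 500 UMIs. The lung libraries shared 21 barcode sequences, none of them a member in both.

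As background, alveolar fibroblasts lie beside type 2 epithelial cells, hold and release lipid and retinoid for surfactant synthesis, lay down elastin and the thin matrix of the septum, and make Wnt, FGF and BMP signals that support epithelial renewal. The transcription factor Tcf21 marks the lipid-storing fibroblast lineage, Inmt is an enzyme that methylates indole amines such as tryptamine, and Col13a1 is a membrane-spanning collagen. TNF binds receptors that switch on NF-kB, and NF-kB raises chemokines, adhesion molecules, acute-phase proteins and its own inhibitors Nfkbia and Tnfaip3. Complement C3, the protein at the centre of the complement cascade, is made by many stromal cells.

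Promoter sequence is shown for 4 genes of the comparison. They are *Inmt*, the marker with the lowest ratio among those of high level, and *Saa3*, whose UMIs lay in few cells of either library. The others are *C3*, which was higher, and *Nfkbia*, the textbook NF-kB target. Each is the sequence 5′ to 3′ on the gene's own strand, from RefSeq's promoter table for GRCm38.p6, with bases already inside the GENCODE gene left out: chr6:55175044-55175240, chr7:46715701-46715926, chr17:57228137-57228386 and chr12:55492648-55492897, all on the minus strand. Capitals mark matches, on either strand, to TATAAA, to the C/EBP-type motif TTGCNNAA, or to the kappa-B consensus.
Inmt promoter: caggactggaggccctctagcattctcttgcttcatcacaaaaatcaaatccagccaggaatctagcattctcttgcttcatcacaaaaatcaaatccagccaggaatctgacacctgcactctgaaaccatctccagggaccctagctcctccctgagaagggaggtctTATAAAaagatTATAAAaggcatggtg
Saa3 promoter: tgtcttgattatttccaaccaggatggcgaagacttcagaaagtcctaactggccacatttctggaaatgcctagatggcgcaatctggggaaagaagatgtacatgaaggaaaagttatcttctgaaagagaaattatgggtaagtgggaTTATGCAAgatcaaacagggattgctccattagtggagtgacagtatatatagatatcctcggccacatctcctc
C3 promoter: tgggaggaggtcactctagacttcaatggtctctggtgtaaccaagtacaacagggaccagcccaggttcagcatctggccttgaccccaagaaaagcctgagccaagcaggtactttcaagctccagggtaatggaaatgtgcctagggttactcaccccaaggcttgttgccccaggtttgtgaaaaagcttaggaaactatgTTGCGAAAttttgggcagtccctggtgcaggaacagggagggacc
Nfkbia promoter: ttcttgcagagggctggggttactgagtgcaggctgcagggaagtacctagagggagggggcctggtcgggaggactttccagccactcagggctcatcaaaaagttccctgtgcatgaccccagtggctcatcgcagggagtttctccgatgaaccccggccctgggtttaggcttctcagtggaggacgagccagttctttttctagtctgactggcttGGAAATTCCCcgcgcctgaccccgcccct

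The *Inmt* sequence held 2 TATAAA matches, which began 27 and 16 bases before the GENCODE start. *Saa3* and *C3* each held 1 TTGCNNAA match, which began 75 and 45 bases before the start, and *Nfkbia* held 1 kappa-B match that began 29 bases before it. Over the 250 bases before the RefSeq start, TATAAA was present in 12.4% of 32841 mouse promoter sequences, TTGCNNAA in 9.57% and the kappa-B consensus in 3.90%. Counted by gene, the kappa-B consensus was found for 8 of the 19 TNF and NF-kB feedback genes with a promoter in the table, 6 of 23 inflammatory mediators and 0 of 16 alveolar fibroblast identity genes, beside 4.46% of 27018 genes. TTGCNNAA was found for 0 of 19, 10 of 23 and 3 of 16 of the same lists, beside 10.8% of all genes. A match is a string of letters in this window and not a measured binding site.

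The share of members was far lower in the TNF+ lung. They made up 3.63% (3.24 to 4.06, exact interval) of 8342 kept TNF- barcodes and 0.244% (0.161 to 0.354) of 11085 kept TNF+ barcodes, a difference of -3.39 percentage points (-3.82 to -2.99, Newcombe interval). Other stroma moved the same way: adventitial fibroblasts, chosen by the mirror-image rule on *Col14a1*, *Pi16* and *Dpt*, went from 107 to 13 cells, and endothelial cells from 24.0% to 1.46% of kept barcodes, while T cells stood at 10.5% and 11.7%. Of alveolar and adventitial fibroblasts together, members were 73.9% (69.4 to 78.1) without and 67.5% (50.9 to 81.4) with the transgene, 2 intervals that overlap. A share of captured barcodes is no count of cells in the tissue. Fewer fibroblasts, more cells of other types and fewer released by digestion cannot be told apart here.

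The label was then checked against markers the rule did not use. In the TNF- lung, *Inmt* had a UMI in 251 of 303 members, *Col13a1* in 227 and *Tcf21* in 231, at 3350, 428 and 455 CPM (UMIs per 1000000 UMIs of the summed cells), against 29.1, 4.11 and 6.85 CPM in T cells, which should lack them. In the TNF+ lung the same genes had a UMI in 5, 11 and 5 of 27 members. The label therefore held for most TNF- cells and was weakly borne out in TNF+ cells, for which *Npnt*, *Slit2* and *Limch1* remain the basis of the name.

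Some members carried the markers of other mesenchyme. Thresholds set after the values were seen put 42 TNF- and 7 TNF+ members at 5 or more UMIs of *Myh11*, the smooth muscle myosin heavy chain, which was 13.9% (10.2 to 18.3) and 25.9% (11.1 to 46.3) of members. Another 6 TNF- and 5 TNF+ members had at least 3 UMIs of the mesothelial genes *Msln* and *Upk3b*, 1.98% (0.730 to 4.26) and 18.5% (6.30 to 38.1), and 9 TNF- and 0 of 27 TNF+ members, a count of 0 that allows up to 12.8% by the exact interval, had 3 or more UMIs of the pericyte genes *Cox4i2*, *Notch3* and *Higd1b*. The leading genes of each set in the TNF- lung, over the other members, belonged to those types: *Actc1*, *Actg2*, *Cnn1* and *Myocd* for *Myh11* members, *Gpm6a*, *Slurp1* and *Muc16* for *Msln* or *Upk3b* members, and *Trpc6*, *Postn* and *Ndufa4l2* for the pericyte set. *Inmt* stood at 140 CPM in the TNF- *Myh11* members and 9.31 CPM in the TNF- mesothelial set. The TNF- *Myh11* members held 467 CPM of *Npnt* and 573 CPM of *Limch1*. The rule chose all these cells for such UMIs, so these levels do not show what the same types carry in general.

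The remaining members, 246 TNF- cells (81.2%, 76.3 to 85.4) and 15 TNF+ cells (55.6%, 35.3 to 74.5), were left after those cells were set aside. *Inmt* had a UMI in 243 of the 246 TNF- cells and in 5 of the 15 TNF+ cells, and *Tcf21* in 212 and 4. *Myh11* stood at 2.40 and 15.2 CPM in them and *Msln* at 0.267 and 0 CPM, and *Notch3* at 3.74 and 0 CPM. Their share of kept barcodes differed by -2.81 points (-3.20 to -2.46). Of alveolar and adventitial fibroblasts left after the same thresholds, they were 74.1% (69.0 to 78.7) without and 57.7% (36.9 to 76.6) with the transgene.

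**Figure D1:**
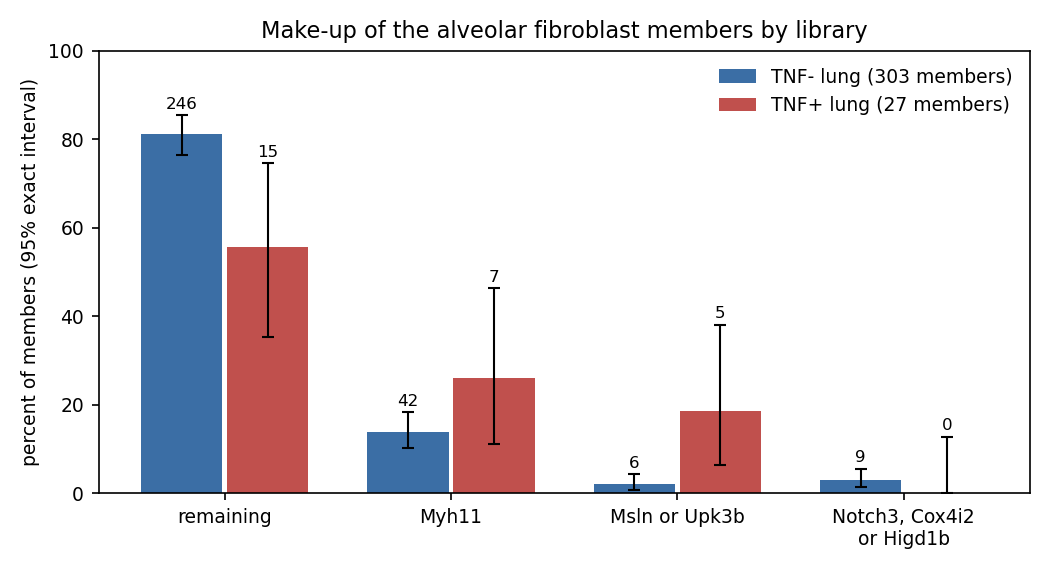
Percent of alveolar fibroblast members in each set, by library, with 95% exact binomial intervals and the number of cells above each bar. Remaining members made up 81.2% of 303 TNF- and 55.6% of 27 TNF+ members, and cells with *Msln* or *Upk3b* 1.98% and 18.5%.

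The 15 TNF+ cells were shallower and of other RNA make-up than the 246. Median UMIs per cell were 14921.5 (lowest 562, highest 65472) for TNF- and 8990 (3176 to 33341) for TNF+ cells, the median mitochondrial share was 3.14% and 6.04%, and the nuclear RNA *Malat1* stood at 27678 and 46691 CPM. All 15 sampled ribosomal and translation genes had a lower CPM in the TNF+ cells, with a median log2 ratio of -0.66, among them *Tpt1* (2533 and 1576 CPM), *Rplp1* (2322 and 1389 CPM) and *Eef1a1* (2135 and 1374 CPM). The 2 deepest TNF+ cells held 33.5% of the 197917 TNF+ UMIs. The part of these differences in any ratio below was not tested. Single TNF+ cells also weighed on some ratios: without the TNF+ cell with most of the gene's UMIs, the log2 ratio of *Inmt* was -4.82 in place of -4.14, that of *Ogn* -2.39 in place of -1.53, that of *Timp1* -3.74 in place of -2.59, that of *Hp* 1.96 in place of 3.02 and that of *Ccl2* 3.37 in place of 4.07.

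In the TNF- lung, the genes that set the 303 members apart from all other kept barcodes included *Col13a1*, *Fgfr4*, *Cxcl14* and *Slc38a5* of the identity list. The members had been chosen on alveolar genes, so this is a description. Among the 20 with the highest CPM ratio and at least 50 UMIs, *Fgfr4* (an FGF receptor), *Cxcl14* (a chemokine), *Slc38a5*, *Slc36a2* and *Slc7a10* (amino acid transporters), *C7* (the terminal complement protein), *Bmper* (a BMP-binding protein), *Prkg2* (a cGMP-dependent kinase) and *Adrb3* (a beta-adrenergic receptor) joined *Col13a1*. *Saa3* headed that list at 125-fold but had a UMI in only 9 of 303 members, and *Mylk4* and *Gm12381* had none in remaining members, so these 3 were set by few cells. *C7* stood at 842 CPM in members and 21.4 CPM in the other barcodes, and *Cxcl14* at 877 and 24.6 CPM. *Slc7a10* was at 126 CPM in remaining members, with a UMI in 142 of 246 cells, and at 0 UMIs in 86 TNF- adventitial cells. The same genes stood unevenly in the 15 remaining TNF+ members: *Slc36a2* was at 246 and 237 CPM, with a UMI in 193 of 246 TNF- and 14 of 15 TNF+ cells, *Prkg2* at 210 and 141 CPM, and *Slc38a5* at 190 and 40.4 CPM, while *Slc7a10* and *Chst8* had no UMI. For *Slc7a10* that is at least 3.06 lower on the log2 scale, against the floor of 3 UMIs over the TNF+ cells.

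Against those 86 adventitial cells of the same library, the remaining TNF- members held more *Nebl* (1435 against 20.6 CPM), *Ctnnd2* (302 against 3.17 CPM), *Fgfr4* (116 against 1.59 CPM) and *Inpp4b* (176 against 2.38 CPM). They held less *Scara5* (0.801 against 173 CPM), *Lgr6* (1.60 against 137 CPM), *Lgr5* (3.20 against 152 CPM) and *Tgfbi* (8.81 against 499 CPM). *Scara5* is a scavenger receptor of adventitial fibroblasts, and *Lgr5* and *Lgr6* are receptors for R-spondins. These are cells of 1 library chosen by opposite rules, so the contrast is a description. *Inmt* was also present in the adventitial cells, at 629 CPM and in 43 of 86, against 4188 CPM.

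Between genotypes, all 303 and 27 members gave 11691 genes with at least 20 UMIs in both libraries together and a ratio. Of these, 1161 (9.93%) were at least 2-fold higher and 1296 (11.1%) at least 2-fold lower in the TNF+ members, and the median log2 ratio of all genes was -0.00. The interval lay wholly past 2-fold for 453 (3.87%) higher and 265 (2.27%) lower genes, and 306 (2.62%) and 220 (1.88%) of the genes tested did so and also stood above free RNA, meaning at least 2 times the level per cell of T cells and of endothelial cells in the library where the gene was higher. That level also holds what T cells and endothelial cells make themselves, so a gene that did not pass it need not be free RNA. With all members counted, markers of the sets above moved with the genotype: 8 of 9 mesothelial genes were at least 2-fold higher, with a summed level of 765 and 3368 CPM, and 6 of 11 myofibroblast genes, 5323 and 14972 CPM summed. The 15 largest increases by the naming rule included *Pcdh15*, *Gabrg3*, *Chil1*, *Cxcl13*, *Slc15a3*, *Bst1*, *Sncg* and *Sost*, and the 15 largest decreases *Inmt*, *Lrp4*, *Spon2*, *Nt5dc2*, *Adrb3*, *Pcolce2* and *Scn3a*. The comparison below is therefore given for the remaining members, 246 and 15 cells, unless all members are named. Words such as fell and rose compare these 2 sets of cells. Whether the TNF+ cells are the same cell type in another state or other stroma that the rule admits was not tested.

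Remaining members gave 10328 genes, 1324 (12.8%) at least 2-fold higher and 1387 (13.4%) at least 2-fold lower in TNF+ cells, around a median log2 ratio of -0.01. The interval lay wholly past 2-fold for 305 (2.95%) and 133 (1.29%), and did so above free RNA for 170 (1.65%) and 108 (1.05%). Of the identity list, 0 of 21 genes were at least 2-fold higher and 14 at least 2-fold lower. Of inflammatory mediators, 13 of 20 were higher and 2 lower, and of TNF and NF-kB feedback genes 18 of 21 and 0. These lists stood on opposite sides of the all-gene median.

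**Figure D2:**
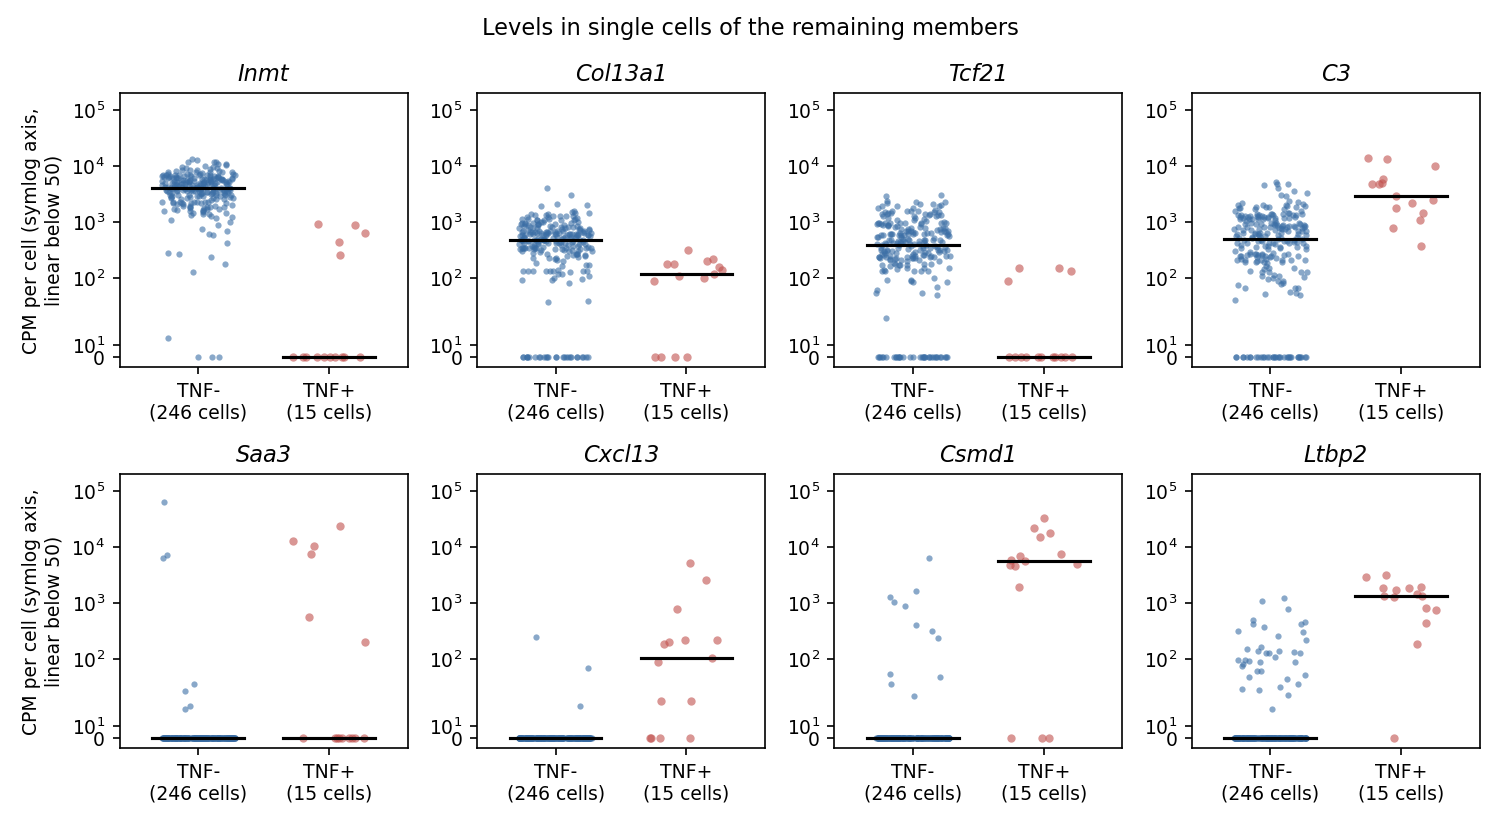
CPM in each remaining member for 8 genes on a symlog axis (linear below 50), by library, with 1 point per cell and the median as a line. *Inmt* fell to 0 in 10 of 15 TNF+ cells, *C3* was present in all 15, *Saa3* was high in few cells of either library, and *Csmd1* and *Ltbp2* were present in most TNF+ cells and few TNF- cells.

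*Inmt* (ENSMUSG00000003477, chr6:55170626-55175043, GRCm38) had the lowest log2 ratio of the identity list. Single TNF- cells ranged from 0 to 13353 CPM with a median of 4080, and the TNF+ cells from 0 to 943 CPM with a median of 0. Every TNF+ cell lay under the TNF- median. The summed level was 4188 CPM (4122 to 4254) in TNF- and 237 CPM (174 to 316) in TNF+ cells, for a log2 ratio of -4.14 (-4.59 to -3.73), with a UMI in 243 of 246 and 5 of 15 cells. After each cell was thinned to 3000 UMIs, which left out 40 TNF- cells and no TNF+ cell, *Inmt* was seen in 199 of 206 (96.6%) and 5 of 15 (33.3%) cells. In T cells, which should lack it, 9.61% of TNF- and 0.692% of TNF+ cells had a UMI unthinned, at median depths of 9614.5 and 10059 UMIs.

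*Tcf21* (ENSMUSG00000045680, chr10:22817281-22820174), the lineage's transcription factor, was lowered from 558 CPM to 60.6 CPM, for a log2 ratio of -3.20 (-4.16 to -2.39), with a UMI in 212 of 246 and 4 of 15 cells. *Col13a1* (ENSMUSG00000058806, chr10:61838236-61979108) went from 531 to 126 CPM, but 11 of 15 TNF+ cells kept a UMI, and the cells spanned 0 to 315 CPM around a median of 119. The adhesion receptor subunit *Itga8* went from 1336 to 283 CPM (-2.24, -2.65 to -1.86), *Scube2* by -2.91, *Cxcl14* by -2.95 and *Fgfr4* by -2.52 on the log2 scale. The PDGF receptor *Pdgfra* went from 1040 to 465 CPM, and 12 of 15 TNF+ cells still had a UMI. The 2 ends of the list differed: *Mfap4*, a microfibril protein, stood at 2085 and 1935 CPM, *Spon1* at 807 and 743 CPM and the cytoskeletal linker *Macf1* at 5226 and 4168 CPM, and the lung's *Tbx5* at 88.9 and 90.9 CPM. The list's median log2 ratio was -1.16 in remaining members and -1.64 in all members. Without the 2 deepest TNF+ cells the median of the remaining members was -1.85.

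The 3 rule genes did not move together, which is given as a description. *Slit2*, an axon-guidance ligand, stood at 964 and 950 CPM and had a UMI in 14 of 15 TNF+ cells, *Limch1*, an actomyosin regulator, at 3427 and 1304 CPM, and *Npnt*, the ligand of the integrin that contains Itga8, at 2031 and 369 CPM. *Dpt*, one of the genes the rule sets against them, stood at 567 and 435 CPM and *Col14a1* at 138 and 60.6 CPM. The TNF+ cells thus entered the set mainly on *Slit2* and *Limch1*.

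Genes the remaining members share with adventitial fibroblasts also fell. *Clec3b* (tetranectin) had a UMI in 208 of 246 TNF- cells and 1 of 15 TNF+ cells, at 510 and 15.2 CPM (-5.07, -7.35 to -3.52). *Crispld2* went from 480 to 20.2 CPM and *Pcolce2*, an enhancer of procollagen processing, from 1890 to 116 CPM (-4.02, -4.68 to -3.44). Of the marker list of adventitial fibroblasts 7 of 11 genes were at least 2-fold lower and 0 higher. The rule had chosen the cells against *Col14a1*, *Pi16* and *Dpt*, so the list is no independent check of their type. Outside the list, *Csmd1* and *Enpp2* were higher in TNF- adventitial cells than in TNF- remaining members, and were also higher in the TNF+ cells. *Gsn*, the actin-severing gelsolin and one of the most abundant transcripts of the TNF- cells, was in that list: it stood at 13735 CPM with a UMI in all 246, and at 1718 CPM in the TNF+ cells, with a UMI in 14 of 15. *Cd34* went from 497 UMIs in 154 of 246 cells to 1 UMI in 1 of 15, *Pcolce* from 467 to 101 CPM, and *Fstl1* stood at 375 and 561 CPM. Others of the 15 largest decreases were *Lrp4*, *Gask1b*, *Nt5dc2*, *Htra3*, *Spon2*, *Nol3*, *Xkr4*, *Adrb3*, *Adamtsl5* and *1810010H24Rik*, each with 1 to 4 UMIs in the TNF+ cells, so that their intervals are wide.

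Niche signals fell in part. Of 21 genes, 4 were at least 2-fold higher and 7 lower, with a median of -0.63. The BMP ligand *Bmp4* fell from 216 to 15.2 CPM (-3.83, -6.11 to -2.28), seen in 183 of 246 and 3 of 15 cells, and *Igfbp3*, an IGF-binding protein, from 580 to 212 CPM. *Wnt2*, the Wnt ligand of this niche, stood at 135 and 65.7 CPM, the latter in 3 of 15 cells, and its log2 ratio of -1.04 was -2.47 without 1 of them. *Bmp5* stood at 440 and 273 CPM, the angiopoietin *Angpt1* at 782 and 561 CPM, *Fgf10* at 257 and 167 CPM and *Vegfd* at 294 and 227 CPM, none of them past 2-fold. The alarmin *Il33* rose from 1.33 to 106 CPM, with 5 UMIs in 4 of 246 cells and 21 UMIs in 9 of 15 cells.

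Lipid and retinoid genes went both ways. Of 14 lipid genes 2 were at least 2-fold higher and 7 lower, but 6 of the 7 lower ones rested on 1 or 2 TNF+ UMIs with intervals that include 0, 2 intervals lay above 0 and 2 below it, and the summed level was 1028 CPM in TNF- and 2051 CPM in TNF+ cells, most of the latter *Enpp2*. Of 7 retinoid genes 1 was at least 2-fold higher and 4 lower. The lipid droplet coat *Plin2* went from 154 to 65.7 CPM, with a UMI in 7 of 15 TNF+ cells. The lipase inhibitor *G0s2* went from 450 to 248 CPM, but 53.1% of its TNF+ UMIs lay in 1 cell and its log2 ratio of -0.86 was -1.78 without that cell. *Aldh1a1*, which makes retinoic acid, went from 1145 to 495 CPM (-1.21, -1.51 to -0.92). The lipoprotein lipase *Lpl* stood at 86.5 and 116 CPM, and *Pparg*, the lipid-cell transcription factor, had 106 UMIs in 46 TNF- cells and 1 in the TNF+ cells. The retinol carrier *Rbp4* and the reductase *Dhrs3* were lower, with 3 and 4 TNF+ UMIs, and *Cyp26b1*, which degrades retinoic acid, was higher by 6 of 7 UMIs in 1 cell. *Enpp2*, the autotaxin that makes lysophosphatidic acid, went the other way, from 81.9 to 1445 CPM (4.14, 3.90 to 4.38), with a UMI in 95 of 246 and all 15 cells. It is also on the myofibroblast marker list, where *Tagln* stood at 304 and 384 CPM, with 69.7% of the TNF+ UMIs in 1 cell and a log2 ratio of 0.34 that turned to -1.12 without it, *Hhip* at 89.9 and 162 CPM and *Aspn* at 93.1 and 25.3 CPM. In TNF- adventitial cells *Enpp2* stood at 839 CPM and in TNF+ ones at 1592 CPM.

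Matrix genes were split among the abundant ones. *Eln* (elastin) stood at 1225 and 1137 CPM, but 65.8% of its TNF+ UMIs came from 1 cell and its log2 ratio of -0.11 was -1.39 without it. *Sparc* (2496 and 2314 CPM) and the proteoglycan *Bgn* (2257 and 2314 CPM) differed little, and *Col5a2* stood at 434 and 687 CPM. *Col6a2* was at least 2-fold lower, as were the heparan sulfate carrier *Gpc3* (599 to 288 CPM), the proteoglycans *Ogn* (1520 to 525 CPM) and *Prelp* (701 to 212 CPM), the fibulin *Fbln1* (398 to 96.0 CPM) and the latent TGF-beta binder *Ltbp4* (1112 to 510 CPM). By list, 1 of 19 elastic fibre genes was at least 2-fold higher and 7 lower, 0 and 3 of 15 other collagens, 3 and 4 of 18 basement membrane and adhesion genes, and 2 and 6 of 12 proteoglycans, with medians of -0.70, -0.27, -0.37 and -0.87. Between those lay the fibrillin *Fbn1* (593 and 429 CPM), *Col6a1* (648 and 364 CPM), *Col6a3* (596 and 364 CPM), the laminin chain *Lama2* (749 and 465 CPM) and the integrin chain *Itgb1* (565 and 450 CPM), none of them past 2-fold. The higher members rested on few UMIs: *Lama5* had 34 in 26 TNF- cells and 19 in 9 TNF+ cells, *Itga1* 86 in 57 and 41 in 8, and the hyaluronan synthase *Has2* 21 in 10 and 9 in 4. *Col15a1* had 129 UMIs in 35 TNF- cells and none in the TNF+ cells, at least 1.18 lower on the log2 scale against the floor.

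The elastic fibre gene that rose was *Ltbp2* (ENSMUSG00000002020, chr12:84783212-84876532), a microfibril-associated protein that is also on the fibrotic activation list. It stood at 29.4 CPM (24.1 to 35.4) in TNF- cells, 39 of 246 with a UMI, and 1667 CPM (1492 to 1857) in TNF+ cells, 14 of 15 with a UMI. The log2 ratio was 5.83 (5.51 to 6.15), and 5.60 without the TNF+ cell that held most of its UMIs. Of the 12 fibrotic activation genes tested, *Ltbp2* included, 4 were at least 2-fold higher and 2 lower, and 6 intervals lay above 0 and 2 below it. The other higher ones were *Runx1* (41.1 to 187 CPM, 2.19), *Ccn1* (160 to 546 CPM, 1.77) and *Acta2* (120 to 288 CPM, 1.26), of which 62.2%, 59.3% and 43.9% of the TNF+ UMIs lay in 1 cell; without it their ratios were 1.05, 0.74 and 0.69. *Runx1* was lower per TNF+ member (2.47 UMIs) than per T cell of the same library (6.56). *Tnc* was lower at 113 and 15.2 CPM. *Fn1* stood at 804 and 717 CPM, but 54.2% of its TNF+ UMIs lay in 1 cell and its log2 ratio of -0.16 was -1.03 without it. *Thbs1* stood at 390 and 389 CPM, *Ccn2* at 360 and 460 CPM and *Pmepa1* at 701 and 995 CPM.

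Inflammatory mediators rose, by a median log2 ratio of 1.91 over 20 genes in remaining members and 1.49 in all members. The homeostatic chemokine *Cxcl12* went from 159 to 854 CPM (2.43, 2.17 to 2.68), with a UMI in 107 of 246 and 12 of 15 cells, and the adhesion molecule *Vcam1* from 449 to 1046 CPM (1.22), present in all 15 against 207 of 246. *Ccl2* went from 7.21 to 121 CPM, in 4 of 246 and 5 of 15 cells, and *Ccl19* from 18.7 to 227 CPM (3.61, and 2.47 without 1 cell). *Timp1*, a protease inhibitor also on this list, fell from 244 to 40.4 CPM. *Ccl7* had 60 UMIs in 2 TNF- cells and 58 in 5 TNF+ cells, 84.5% of the latter in 1 cell. *Cxcl10*, counted as at least 2-fold higher, had 82.6% of its TNF+ UMIs in 1 cell. Its log2 ratio of 1.39 turned to -1.05 without that cell, and was -2.58 in adventitial cells. The adhesion molecule *Icam1* went from 86.5 to 268 CPM, with a UMI in 138 of 246 and 11 of 15 cells, and the macrophage growth factor *Csf1* from 50.7 to 232 CPM. Of the 20 genes 16 stood above free RNA as defined, and *Cxcl12*, *Icam1*, *Csf1* and *Lcn2* did not. These 4 passed the T cell part of that level and fell short only of the endothelial part. *Cxcl12* stood at 11.3 UMIs per TNF+ member and 0.0184 per TNF+ T cell, and *Csf1* at 3.07 and 0.0807. Of the 30 genes on the list, 7 had no UMI in the 15 TNF+ cells and 2 none in the 246.

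*Cxcl13*, the B-cell-attracting chemokine (ENSMUSG00000023078, chr5:95956951-95961068), must be read against free RNA. It went from 18 UMIs in 3 of 246 cells (4.80 CPM) to 110 UMIs in 11 of 15 cells (556 CPM). But 73 of the 110 lay in 1 cell and 22 in another, while the other 13 cells had 0 to 5, at a median of 1. T cells, taken here as the measure of free RNA, had a UMI in 49.3% of TNF+ cells, at 2.24 UMIs per cell, and in 0 of 874 TNF- cells, which allows up to 0.421% by the exact interval. The 2 high cells stood far above that level, and the median of the others below it.

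*Saa3* (ENSMUSG00000040026, chr7:46711998-46715700), an acute-phase protein, was a gene of few cells in both libraries. In the TNF- lung 3 of 246 remaining members, with 16, 430 and 2496 UMIs, held 99.9% of its 2946 UMIs, and 239 had none. In the TNF+ lung 4 of 15 cells, with 42 to 528 UMIs, held 99.6% of 1024, 2 had 1 or 3 and 9 had none. The summed levels of 786 and 5174 CPM therefore describe 3 and 4 cells. Of the TNF- cells without it, 1.10 CPM was left in 243 cells, and of the TNF+ cells 33.4 CPM in 11. The 3 TNF- cells had 65472, 39120 and 2169 UMIs and 1, 11 and 4 UMIs of *Inmt*, so that the 2 deep ones were almost without it while the other 243 cells stood at 4306 CPM. The deepest also held 218 of the 270 *Hp* and 139 of the 158 *Lcn2* UMIs of the TNF- cells. Among the TNF+ cells *C3* stood at 5489 CPM in the 4 with *Saa3* and 3477 CPM in the other 11. No doublet caller was run, and whether the 2 deep TNF- cells are doublets was not tested.

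*C3* (ENSMUSG00000024164, chr17:57203970-57228136) stood higher in the TNF+ cells as a group. TNF- cells ranged from 0 to 5215 CPM with a median of 495, and TNF+ cells from 372 to 13854 CPM with a median of 2909. The summed level was 817 CPM (788 to 846) and 4269 CPM (3986 to 4567), for a log2 ratio of 2.39 (2.27 to 2.50), with a UMI in 212 of 246 and 15 of 15 cells. The 2 ranges overlapped in single cells. T cells held 0.841 *C3* UMIs each in the TNF+ lung and 0.0561 in the TNF- lung, against 56.3 and 12.4 per remaining member, so free RNA was a small part of the level. Of the 15 complement genes tested, *C3* included, 4 were at least 2-fold higher and 4 lower, and 7 intervals lay above 0 and 5 below it. The protease genes *C1s1* (339 to 697 CPM, 1.04) and *C1ra* (227 to 374 CPM, 0.72), *C4b* (285 to 429 CPM, 0.59), *C2* (0.95) and the regulator *Cd55* (1.66) also stood higher, by less than *C3*, with intervals above 0; *Cd55* did not pass the free RNA level. *C7* fell from 1055 to 243 CPM (-2.12, -2.56 to -1.71, and -3.14 without the TNF+ cell with most of its UMIs) and the collectin receptor *Colec12* from 1204 to 541 CPM, the C1 inhibitor *Serping1* stood at 1712 and 1627 CPM, and *Cfb* at 70.2 and 121 CPM (0.79, 0.12 to 1.39), with a UMI in 76 of 246 and 11 of 15 cells. The complement regulator *Cd46* had 124 UMIs in 60 TNF- cells and 1 in the TNF+ cells.

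**Figure D3:**
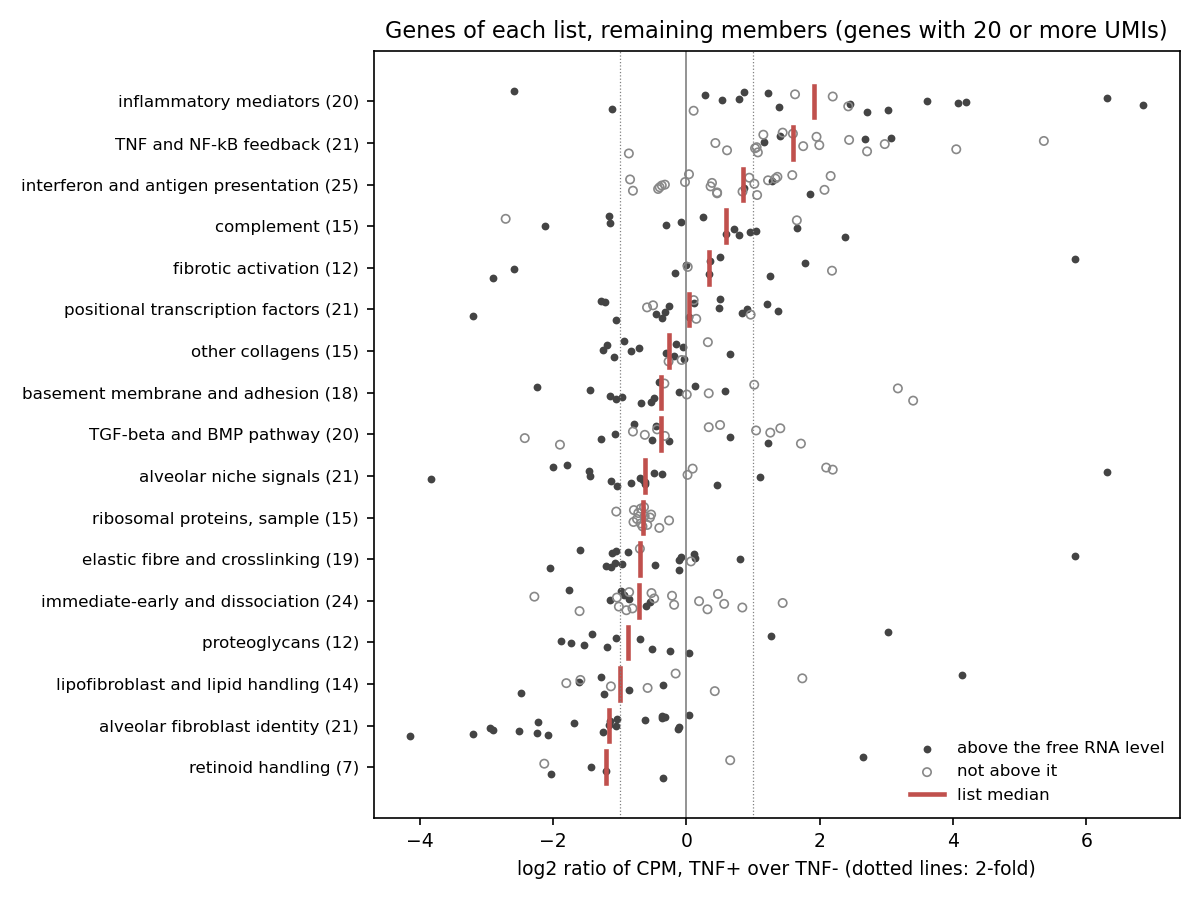
log2 ratio of CPM, TNF+ over TNF-, of each list gene with at least 20 UMIs in remaining members (points; filled where the level per cell was at least 2 times that of T cells and of endothelial cells in the library where it was higher), with the list median as a bar and the number of genes in brackets. Inflammatory mediators had a median of 1.91 and identity genes of -1.16.

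TNF and NF-kB feedback genes stood higher by a median of 1.60, but only 4 of the 21 passed the free RNA level of at least 2 times T cells and endothelial cells. For this list that level is no measure of free RNA alone. Without the transgene *Nfkbia* stood at 3.57 UMIs per T cell and 1.60 per remaining member, and *Tnfaip3* at 2.09 and 0.0691. The inhibitor *Nfkbia* (ENSMUSG00000021025, chr12:55489410-55492647) went from 105 to 687 CPM (2.71, 2.42 to 3.00), with a UMI in 134 of 246 and 13 of 15 cells. *Tnfaip3* (A20) went from 4.54 to 187 CPM, 13 of 246 and 11 of 15 cells, and *Nfkb1* from 146 to 303 CPM. *Nfkbie* had 16 UMIs in 12 TNF- cells and 14 in 5 TNF+ cells, and *Nfkbiz* stood at 121 and 248 CPM. The receptor *Tnfrsf1a* stood at 129 and 70.7 CPM. Per cell, the TNF+ members held 9.07 UMIs of *Nfkbia* and 2.47 of *Tnfaip3*, and T cells of that library 5.82 and 2.54, and the part of free RNA in these 2 was not tested.

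Interferon and antigen-presentation genes rose less, with 10 of 25 at least 2-fold higher, 0 lower and a median of 0.84. *H2-K1* went from 296 to 1329 CPM, *H2-D1* from 460 to 1384 CPM and *B2m* from 817 to 2107 CPM, all class I antigen-presentation genes, while *Ifitm3* stood at 1594 and 1208 CPM. *Ifit1* had 8 TNF+ UMIs, 7 of them in 1 cell. Only 3 of the 25 passed the free RNA level, which here too holds T cell transcripts: *H2-K1* stood at 19.0 UMIs per TNF- T cell and 4.51 per TNF- member. Immune transcripts were also more frequent in TNF+ members: the 16 macrophage and monocyte markers summed to 2.67 UMIs per TNF- and 12.9 per TNF+ cell, against 6.80 and 51.8 per T cell, and 15 lymphocyte markers to 1.37 and 9.60, against 66.2 and 74.1 per T cell. *Lyz2*, a macrophage lysozyme, had a UMI in 143 of 246 and all 15 cells, the immunoglobulin chain *Igkc* in 137 and all 15, and *Cd74*, the class II invariant chain, in 86 and 13. The epithelial *Sftpc* and *Scgb1a1* were in 230 and 234 of 246 and in 15 and 12 of 15 cells. The endothelial list summed to 4.46 and 3.07 UMIs per cell, the epithelial list to 9.13 and 7.33, the neutrophil list to 0.366 and 0.467 and the red cell and platelet list to 1.98 and 0.533. Of the lymphocyte markers 10 of 15 were at 0 in the 15 TNF+ cells.

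The immediate-early and dissociation genes ran down rather than up, with 1 of 24 at least 2-fold higher, 6 lower and a median of -0.70; *Jund* went from 561 to 278 CPM and *Cebpd* from 189 to 55.6 CPM, and *Klf9* (417 and 217 CPM), *Cebpb* (339 and 172 CPM) and the chaperone *Hspa8* (523 and 374 CPM) stood lower within 2-fold. The 21 positional transcription factors, *Tcf21* included, had a median of 0.03 with 2 at least 2-fold higher and 4 lower, while in all members the same list had a median of -0.76 with 1 higher and 9 lower; *Tbx4* stood at 293 and 227 CPM, *Gli1*, the hedgehog effector, at 11.7 and 30.3 CPM (1.37, -0.15 to 2.60), *Zfhx3* at 197 and 212 CPM and *Tbx2* at 366 and 177 CPM. Of 20 TGF-beta and BMP pathway genes 5 were higher and 4 lower; the co-receptor *Tgfbr3* went from 443 to 182 CPM, the endoglin partner *Acvrl1* from 81.4 to 15.2 CPM, *Tgfb1* had 141 and 2 UMIs, *Bmpr2* stood at 240.2 and 192 CPM, *Tgfbr2* at 522 and 364 CPM and *Id3* at 268 and 338 CPM.

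**Figure D4:**
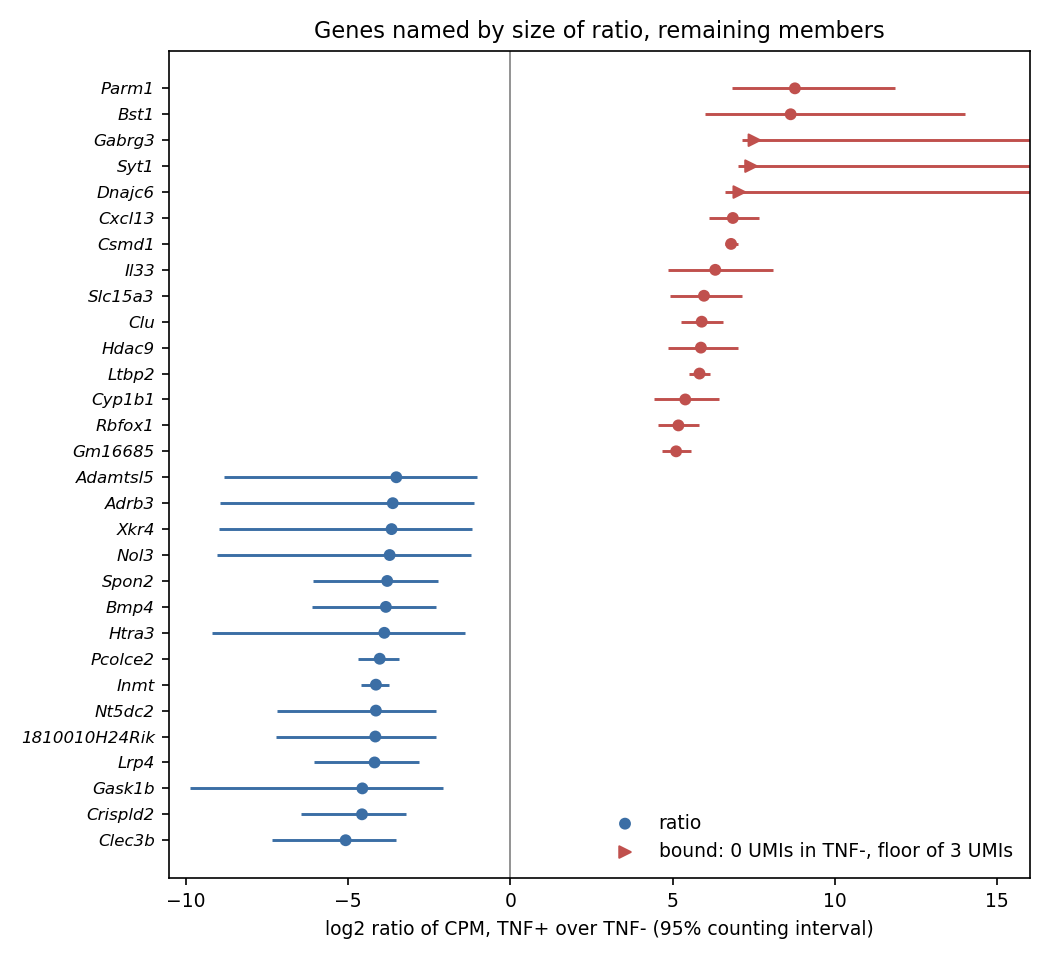
log2 ratio of CPM, TNF+ over TNF-, with 95% counting intervals, of the 15 highest and 15 lowest genes by the naming rule in remaining members; triangles are bounds against a floor of 3 UMIs where the TNF- cells had none. *Csmd1* (6.80) and *Ltbp2* (5.83) had the narrowest intervals among the higher and *Inmt* (-4.14) and *Pcolce2* (-4.02) among the lower genes.

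Of the 15 highest genes the one with the most TNF+ UMIs was *Csmd1* (ENSMUSG00000060924, chr8:15892537-17535586), a very long gene for a membrane protein with complement-control domains. It stood at 63.3 CPM (55.5 to 71.8) in TNF- cells, where 12 of 246 had a UMI, and at 7048 CPM (6683 to 7428) in TNF+ cells, where 12 of 15 had between 26 and 285 UMIs and 3 had none. The log2 ratio was 6.80. T cells held 0.0177 UMIs each in the TNF+ lung. Adventitial cells already carried it without the transgene, at 1262 CPM, and stood at 4153 CPM in the TNF+ lung. Of the 3 TNF+ cells without it 2 were also the cells with 0 or 1 *Malat1* UMI. Reads from introns were counted by default, *Malat1* was higher in the same 15 cells, and the part of nuclear RNA in the *Csmd1* level was not tested.

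Others of the 15 highest rested on fewer UMIs. *Parm1* went from 2 UMIs in 1 of 246 cells to 46 in 10 of 15, a log2 ratio of 8.77 (6.83 to 11.9), and stood at 170 CPM in TNF- *Myh11* members. *Cyp1b1*, a cytochrome P450, went from 14 UMIs in 3 cells to 31 in 10, and *Slc15a3* from 10 in 7 to 33 in 7. *Gabrg3* had 0 UMIs in the TNF- and 29 in 5 TNF+ cells, at least 7.52 on the log2 scale against the floor of 3 UMIs over the group. The long noncoding *Gm16685* went from 17.9 to 616 CPM, 33 of 246 and 12 of 15 cells. Single cells made the values of *Clu*, with 98.9% of 88 TNF+ UMIs in 1 cell, and *Syt1*, with all 27 in 1 cell, and *Hdac9*, *Dnajc6*, *Rbfox1* and *Bst1* had 42.9% to 55.9% in 1.

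Adventitial fibroblasts of the same libraries, 86 TNF- and 11 TNF+ cells after the same thresholds, are set beside these values. The 2 sets share libraries and the difference between them was not tested. The adventitial set also carried myofibroblast markers: that list summed to 8082 CPM in TNF- and 4089 CPM in TNF+ cells, with 7 of 11 genes at least 2-fold lower and 0 higher. Of the 86 TNF- cells 45 had a UMI of *Lgr6*, 50 of *P2ry14* and 21 of *Scara5*. The part of the set's make-up in its ratios was not tested. *Inmt* fell in both, by -4.14 and -4.02. *Tcf21* stood at 117 and 69.0 CPM in adventitial cells, a log2 ratio of -0.77 (-1.61 to -0.02) beside -3.20, and *Col13a1* at -0.50 beside -2.07. *Pdgfra* was at 0.20 beside -1.16, *Clec3b* at -0.69 beside -5.07 and *Bmp4* at -0.49 beside -3.83. *C3* rose to 7406 CPM in the adventitial cells (2.97 beside 2.39), *Cxcl12* by 0.83 beside 2.43, *Ltbp2* by 4.32 beside 5.83 and *Csmd1* by 1.72 beside 6.80. Of 8860 genes in adventitial cells 552 (6.23%) were at least 2-fold higher and 1105 (12.5%) lower, with 1 of 17 identity genes higher and 1 lower, and 11 of 20 inflammatory mediators higher. Their intervals lay wholly past 2-fold for 136 (1.53%) higher and 112 (1.26%) lower genes, and above free RNA for 91 (1.03%) and 93 (1.05%).

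**Figure D5:**
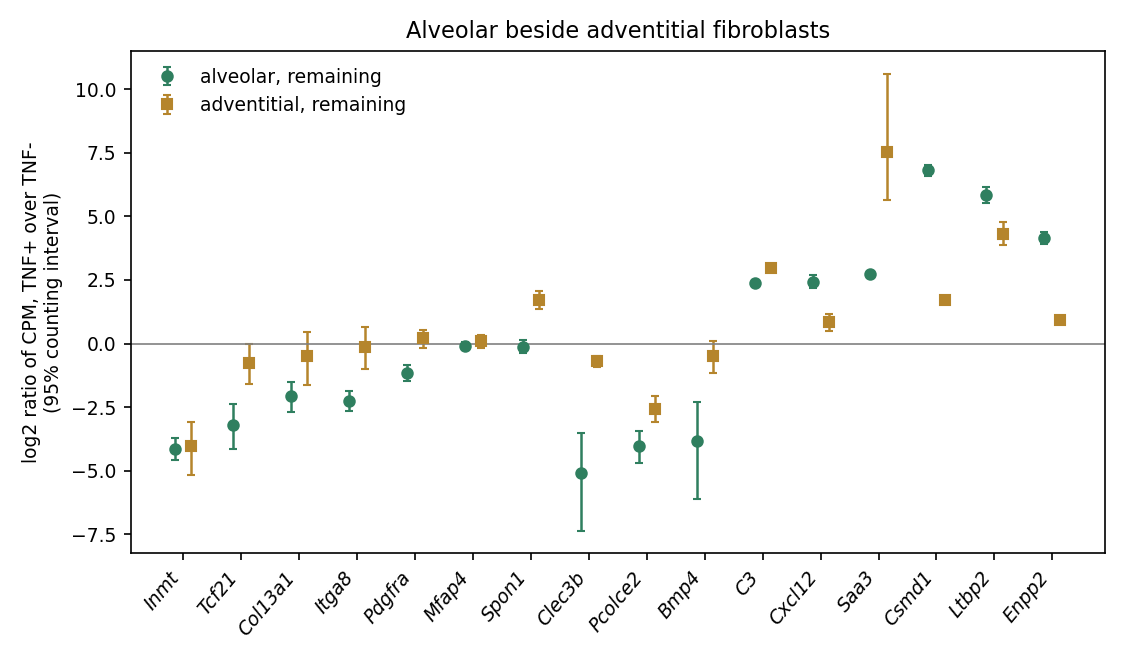
log2 ratio of CPM, TNF+ over TNF-, with 95% counting intervals, of 16 genes in remaining alveolar (246 and 15 cells) and remaining adventitial (86 and 11 cells) fibroblasts, chosen after the values were seen. *Inmt* lay at -4.14 and -4.02 and *Csmd1* at 6.80 and 1.72.

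The rule's edges were looked at once, as a description. In the TNF- lung 9 cells had exactly 3 UMIs of *Npnt*, *Slit2* and *Limch1* and 9 that met the other terms had 2, with 196 and 218 CPM of *Inmt* and 1828 and 2402 CPM of *Myh11*. In the TNF+ lung 2 cells had 3 and none had 2. At the collagen edge, 14 TNF- members had 5 or 6 UMIs and 29 cells outside had 3 or 4, at 2892 and 3101 CPM of *Inmt*, and 1 TNF+ member and 4 cells outside, all without *Inmt*. The 29 cells left out had a median of 1714 UMIs, and 24 of them had *Inmt*.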

How the data were processed

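The authors pooled tissue of each genotype, captured single cells and counted UMIs with Cell Ranger 7.0.1 on mm10 (GRCm38), per the submitters' processing notes; by default this version counts intronic reads too. The deposited values were raw UMI counts per gene and barcode, and no depth scaling or doublet removal had been done. Python 3.11.15 with numpy 2.4.6, scipy 1.17.1, pandas 2.3.3 and matplotlib 3.10.9 was used. Member cells were summed per library and scaled to CPM, and genes with at least 20 UMIs over both libraries were compared. CPM has exact Poisson intervals, shares Clopper-Pearson intervals and log2 ratios conditional binomial intervals. With 1 pooled library per genotype, no test and no leaving-out of a replicate could be made; a called gene is one past 2-fold. The interval code was tested on simulated data. Genes were named as the 15 highest and 15 lowest ratios whose interval left out 0 and that stood above free RNA, with rule, mitochondrial, ribosomal and sex-linked genes left out; as the 20 genes that best set TNF- members apart; and as the 4 most abundant and 2 most changed genes of each list. The members and lists were chosen with earlier results of these data known, and the *Myh11*, *Msln* and *Notch3* thresholds, the remaining members and the other genes named (such as *Malat1*, *Nebl*, *Scara5*, *Pdgfra*, *Wnt2*, *Ccl2*, *Icam1* and *Cfb*) after their values were seen. Of the synovium data only the cells that met the rule were counted and their levels of a few genes given.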

Additional observations from a re-analysis of the deposited data

How the results depend on the processing

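The share difference and the list medians kept their sign under every alternative run, while counts of genes have no sign to keep. Of 583 values for 48 named genes, 474 moved by less than their interval, 109 by more and 0 reversed. Genes named for extreme ratios had intervals that left out 0, so reversals were unlikely from the start. Named genes without a value under a setting are not among the 583. The gene minimum, the free RNA filter and the centring hardly touch a gene's own ratio, so their values could not move. Values that moved outnumbered the rest for remaining members (26 and 11), without the 2 deepest TNF+ cells (27 and 10), with the study's limits (23 and 14) and thinned to 500 UMIs (7 and 2). The share difference of -3.39 points was -2.55 with the study's limits of 200 to 5000 genes, which leave out deep cells, -2.74 without cells that had a *Pecam1*, *Cd3e*, *Cd79a* or *Cdh1* UMI, and -2.81 for remaining members, an alternative added after seeing the data. Of 11691 genes 1161 were higher and 1296 lower, and with each cell thinned to 500 UMIs 172 and 291 of 1454. Above free RNA they were 689 and 711 of 3976. As a share of the genes tested, both were larger in these 2 runs than as reported. The higher count was 726 of 9768 genes at 50 and 2067 of 13499 at 5 UMIs a gene. The identity median of -1.64 was -1.88 with at least 5 UMIs of *Npnt*, *Slit2* and *Limch1*, -1.49 without cells with the other types' UMIs, -0.95 thinned, -1.16 for remaining members and -1.85 for those without the 2 deepest TNF+ cells, the last also added after seeing the data. The inflammatory median of 1.49 was 1.38 with the study's limits, 2.15 without cells with the other types' UMIs, 1.91 for remaining members, 1.76 with cells weighted equally, and 1.59 both at 50 UMIs a gene and above free RNA. Thinning and the gene minimum change how many genes enter; the cause of the other moves was not tested. No paired analysis was possible because each genotype had 1 pooled library, and 27 TNF+ members, 15 of them remaining, limit every value: 1 cell is 1 in 15 of the shares printed.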

Other observations

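The same rule was applied to the barcodes of both synovium libraries, where no alveolar fibroblast is present. It found 90 TNF- and 52 TNF+ cells, so it also admits joint cells that carry *Limch1*, which stood at 401 and 531 CPM in them. *Tcf21* had 0 UMIs in both sets and *Inmt* 13 UMIs in 5 of 90 and 0 in 52 cells. *Npnt* stood at 3.33 and 30.9 CPM. *Saa3* had 0 UMIs in the 90 TNF- cells and 816 UMIs in 10 of the 52 TNF+ cells.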
